A study of Mus musculus with 6 samples.

Results

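Augmin, the complex that starts new microtubules from the sides of existing ones, was followed through its 8 subunit genes, *Haus1* to *Haus8*. The tissue was hippocampus of newborn wild-type (WT) mice and of *Mov10* Deletion mice, in which the study found MOV10 protein strongly reduced. The members were found by symbol: each transcript of the deposited quantifications was matched by its identifier to the GENCODE mouse annotation (release M39, GRCm39), and estimated counts and TPM (transcripts scaled by length to a fixed library total) were summed over the transcripts of a gene. The 8 genes are 8 of 52230 genes matched in the files, and 40 transcripts of theirs were quantified. Both genotypes were sequenced at postnatal day 0 (P0), with 3 libraries each. *Mov10* Deletion mice came from a cross of floxed *Mov10*, *Emx1*-Cre mice with carriers of a germline heterozygous *Mov10* mutation. *Emx1*-Cre acts in excitatory neurons of neocortex and hippocampus, so hippocampal cells outside that lineage can keep *Mov10*. WT mice are C57BL/6 in the study's account of its genotypes. Each library pooled hippocampi of more than 1 pup. Whole tissue was used, so that fewer cells of a type and less RNA per cell cannot be told apart. The study followed augmin with results of these same libraries in view, so the libraries are not independent evidence of any direction given here.

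Augmin is known from dividing cells. Its HAUS2, HAUS6, HAUS7 and HAUS8 subunits form the part that contacts the microtubule, and HAUS1, HAUS3, HAUS4 and HAUS5 form a long coiled-coil part. In human cells HAUS8 binds the microtubule through its N-terminal region, and HAUS6 reaches the γ-tubulin ring complex through the adaptor NEDD1, so that a new microtubule grows out at a shallow angle with the same polarity as its parent. The same reaction takes place in neurons, which have few microtubules anchored at a centrosome and depend on branching from existing ones to fill axons and dendrites. Because the 8 proteins assemble as 1 copy each, the relative levels of the 8 mRNAs were compared as well as each gene on its own.

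The genes lie on 8 chromosomes in GRCm39: *Haus1* at chr18:77835349-77861586, *Haus2* at chr2:120439769-120452041, *Haus3* at chr5:34308186-34326929, *Haus4* at chr14:54779241-54798227, *Haus5* at chr7:30353136-30364424, *Haus6* at chr4:86497090-86530305, *Haus7* at chrX:72479655-72502654 and *Haus8* at chr8:71701205-71725578. *Haus2* is on the plus strand and the other 7 are on the minus strand. *Haus3*, *Haus5* and *Haus6* share bases with another gene of the same strand, where strand cannot separate the reads. *Haus3* lies inside *Poln*, a DNA polymerase gene, and shares 246 identical transcript bases with it, but all *Poln* transcripts together held only 14, 21 and 16 estimated counts in *Mov10* Deletion and 32, 26 and 26 in WT. *Haus5* overlaps the long noncoding gene *Gm21982* over 11227 bases, and their transcripts share a run of 705 identical bases. *Haus5* also has a processed pseudogene, *Gm8146*, with 97.4% identity over 1860 bases, which was listed at 0 estimated counts in all 6 libraries. The span of *Haus6* holds the small RNA gene *Scarna8*.

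The 6 libraries held 71400300 to 86207971 estimated counts. *Mov10* itself had 2.45, 2.14 and 2.09 CPM (counts scaled to a fixed library total) in *Mov10* Deletion and 4.81, 4.75 and 4.80 CPM in WT, a log2 fold change of -1.11 (SE 0.10, limma adjusted p = 0.00115), so the labels and the targeted gene go together. All 10 listed markers of hippocampal neurons, *Emx1*, *Zbtb20*, *Neurod6* and *Prox1* among them, were expressed in every library. Of these, 3 (*Rbfox3*, *Snap25* and *Zbtb20*) were called higher in *Mov10* Deletion and 0 lower. *Emx1* was lower in every *Mov10* Deletion library without a call (log2 fold change -0.12, limma adjusted p = 0.0721). *Neurod6* (-0.16) and *Map2* (-0.051) also had negative values without a call. *Tubb3*, *Dcx*, *Stmn2* and *Prox1* had positive ones without a call (0.027 to 0.17). Their summed level over all 10 was 5382 to 5661 TPM in *Mov10* Deletion and 5291 to 5492 TPM in WT. Of 10 markers of dividing cells, 9 were called lower in *Mov10* Deletion. The other, *Birc5*, had a log2 fold change of -0.23, with overlap (limma adjusted p = 0.0783). The 10 together summed to 196 to 229 TPM in *Mov10* Deletion and 271 to 279 TPM in WT. Astrocyte markers summed to 764 to 836 TPM in *Mov10* Deletion and 635 to 751 TPM in WT, with 2 of 7 called higher. Erythroid markers summed to 1209 to 1709 TPM in *Mov10* Deletion and 1374 to 1760 TPM in WT, with 3 of 6 called lower. Over all tested genes 12.6% were called higher and 12.1% lower. Choroid plexus markers reached 115 TPM in *Mov10* Deletion replicate 1 and 4.20 to 38.1 TPM in the other libraries. The pools also differed in sex: *Xist*, the transcript of the inactive X, was at 0.184, 888 and 1.57 CPM in *Mov10* Deletion and at 182, 251 and 643 CPM in WT. The part of these differences in the results on augmin was not tested, apart from fits with a sex score.

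*Haus4* fell and *Haus7* rose in *Mov10* Deletion hippocampi, and the other 6 subunits did not pass the test. The change was small for both genes, 0.817-fold for *Haus4* and 1.157-fold for *Haus7*, as estimated by the fit with the factors named below. Without those factors the log2 fold change was -0.36 for *Haus4* and 0.21 for *Haus7*. All 8 genes passed the filter on low counts (0.25 CPM in at least 3 libraries) among 16745 genes tested. 1 of 8 subunits was thus called lower, against 12.1% of all tested genes, and 1 of 8 higher, against 12.6%, at an adjusted p of 0.05 in the limma fit with 2 RUVs factors, which are estimates of unwanted variation taken from the differences among libraries of one genotype. The median log2 fold change was -0.0045 over the 8 subunits and 0.0056 over all tested genes. The augmin mRNAs were thus called at a rate near that of the transcriptome.

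**Figure D1:**
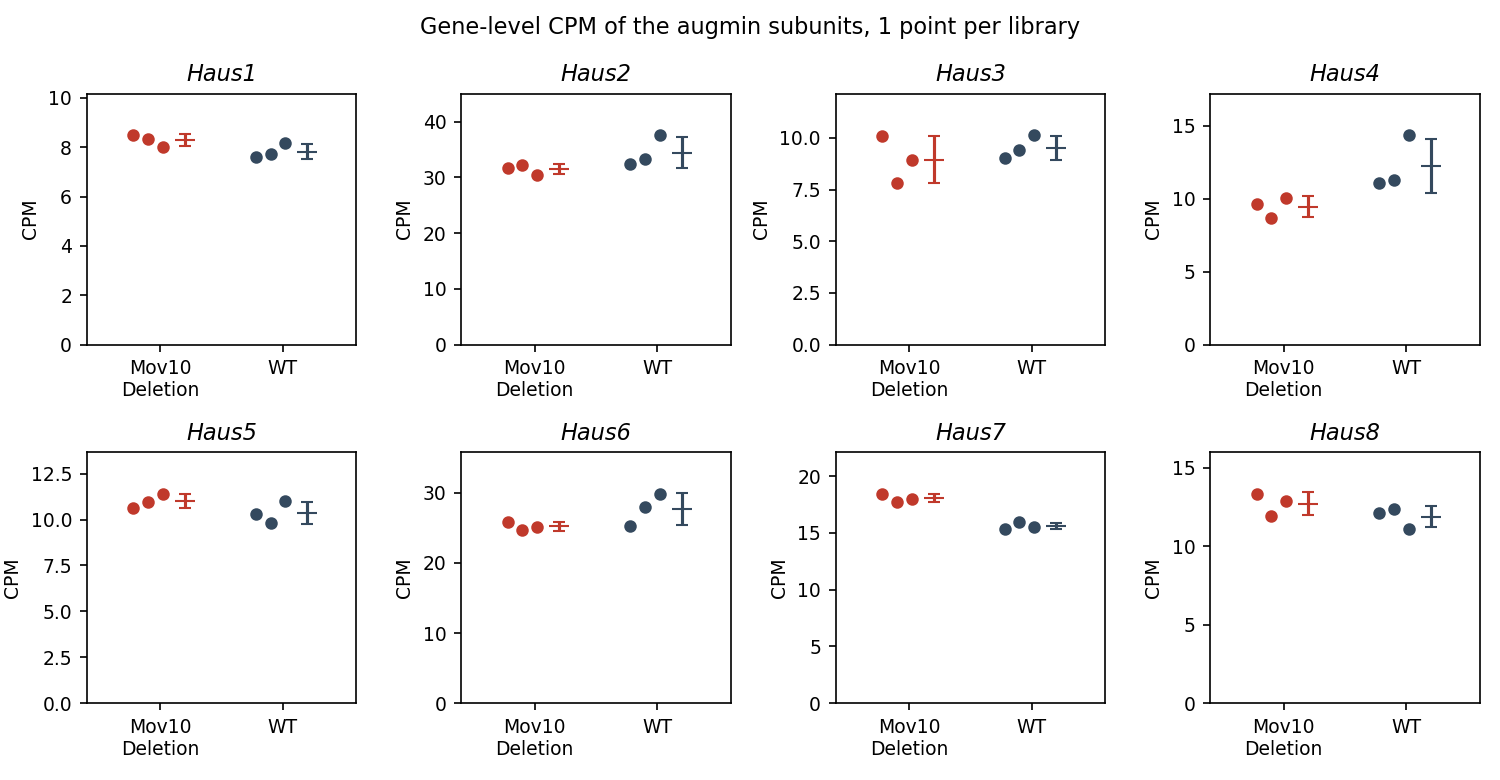
Gene-level CPM (y axis, from 0) of each augmin subunit in the 3 *Mov10* Deletion libraries (red, left) and the 3 WT libraries (dark, right), with the mean and SD beside the points. The *Haus4* points of *Mov10* Deletion all sit below those of WT and the *Haus7* points all above, while *Haus1* sits at 7.60 to 8.48 CPM across the 6 libraries.

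*Haus4*, a subunit of the coiled-coil part, had 9.65, 8.64 and 10.1 CPM in *Mov10* Deletion and 11.1, 11.3 and 14.3 CPM in WT. All *Mov10* Deletion libraries were below all WT libraries, and WT replicate 3 stood above the other WT libraries. The log2 fold change was -0.29 (SE 0.081, limma adjusted p = 0.0355). The study's own analysis of these libraries also reported *Haus4* as down-regulated, so the fall repeats a published result on the same data. The adjusted p stayed at or below 0.0447 when each library was left out in turn, with log2 fold changes of -0.42 to -0.21. With 2 factors and so few libraries these fits leave little residual spread. They called up to 5797 genes, against 4137 with all libraries. They thus cannot show that no single library carries the call. It was lost with a sex score in place of the factors, although the log2 fold change was then -0.42 (SE 0.14, adjusted p = 0.0953), and with a filter of 1 CPM (adjusted p = 0.0658), with no filter (adjusted p = 0.105) and on log2(TPM + 0.1) (adjusted p = 0.0558). The direction was lower in all 19 alternatives.

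*Haus7*, an X-linked subunit of the microtubule-contacting part, had 18.5, 17.8 and 18 CPM in *Mov10* Deletion and 15.4, 16.0 and 15.5 CPM in WT. The libraries of each genotype lay close together and the groups did not overlap. The log2 fold change was 0.21 (SE 0.053, limma adjusted p = 0.0262). *Xist* was near 0 in *Mov10* Deletion replicates 1 and 3 and in no WT library. With the sex score in place of the factors the log2 fold change was 0.19 (SE 0.069, adjusted p = 0.118) and the call was lost. The call was also lost without WT replicate 1 (adjusted p = 0.0652) and without WT replicate 2 (adjusted p = 0.0622), and in 3 further alternatives, with higher values in *Mov10* Deletion in all 19. The same counts, tested as a coding sum among all gene-by-class sums, gave an adjusted p of 0.0707.

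The *Haus7* counts fell on 2 coding transcripts that differ by 3 exons. *Haus7-201* has 10 exons, and *Haus7-202* joins exon 4 directly to exon 8 and so leaves out 348 bases, which keeps the reading frame. The 30 bases across each junction are shown because they tell the transcripts apart, with the 15 bases of exon 4 in capitals and the 15 bases of the next exon in lower case (GRCm39, minus strand, between chrX:72490729 and chrX:72496619).
Haus7-201: CAGGATCTTCTAATGggccgtgagtgtccc
Haus7-202: CAGGATCTTCTAATGtgctttgcacagcat
*Haus7-201* held 1160, 1035 and 944 estimated counts in *Mov10* Deletion and 980, 862 and 893 in WT, and *Haus7-202* held 346.5, 322 and 342 in *Mov10* Deletion and 344, 344 and 300.3 in WT. The long form made up 75.6 ± 1.9% of the gene's counts in *Mov10* Deletion, against 73.5 ± 1.7% in WT (SD over 3 libraries), and usage of the 2 forms did not pass the test (diffSplice adjusted p = 0.714). In log2 terms *Haus7-201* differed by 0.25 (SE 0.070) and *Haus7-202* by 0.084 (SE 0.13), and neither passed over all transcripts tested (adjusted p = 0.167 and 0.751).

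The other 3 members of the microtubule-contacting part had small differences. *Haus2* had 31.8, 32.2 and 30.5 CPM in *Mov10* Deletion and 32.4, 33.3 and 37.5 CPM in WT, without overlap, with a log2 fold change of -0.085 (SE 0.048, adjusted p = 0.229). *Haus6*, the subunit that links to NEDD1 in human cells, had 25.9, 24.6 and 25.1 CPM in *Mov10* Deletion and 25.3, 27.9 and 29.9 CPM in WT. Its groups overlapped and its log2 fold change was -0.093 (SE 0.046, adjusted p = 0.174). *Haus8*, the subunit with the microtubule-binding N terminus, had 13.3, 11.9 and 12.9 CPM in *Mov10* Deletion and 12.1, 12.4 and 11.1 CPM in WT, with overlap, and a log2 fold change of 0.068 (SE 0.064, adjusted p = 0.465). CPM groups did not overlap for 3 of the 8 subunits (*Haus2*, *Haus4* and *Haus7*), against 41.6% of all tested genes.

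Among the coiled-coil subunits beside *Haus4*, none passed. *Haus1* had 8.48, 8.34 and 8.02 CPM in *Mov10* Deletion and 7.60, 7.71 and 8.16 CPM in WT (log2 fold change 0.099, SE 0.071, adjusted p = 0.336). *Haus3* had 10.1, 7.81 and 8.91 CPM in *Mov10* Deletion and 9.01, 9.41 and 10.1 CPM in WT (log2 fold change -0.077, SE 0.070, adjusted p = 0.450). *Haus5* had 10.6, 11 and 11.4 CPM in *Mov10* Deletion and 10.3, 9.82 and 11 CPM in WT (log2 fold change 0.11, SE 0.068, adjusted p = 0.282). The groups overlapped for all 3. *Haus3* varied most within *Mov10* Deletion relative to its mean (8.94 ± 1.1 CPM, SD over 3 libraries), and replicate 2 was its lowest library.

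**Figure D2:**
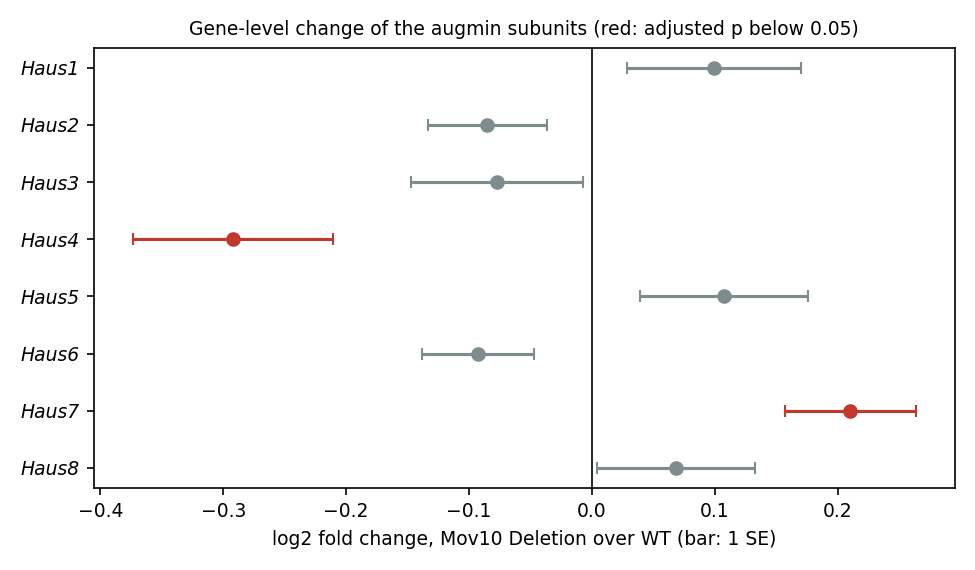
Log2 fold change of each augmin subunit, *Mov10* Deletion over WT (x axis), with 1 SE of the limma fit. Red points, *Haus4* at -0.29 and *Haus7* at 0.21, are those with an adjusted p below 0.05, and the other 6 lie between -0.093 and 0.11.

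TPM is per length, so the 8 mRNAs can be compared with each other on that scale. In *Mov10* Deletion the order of mean TPM was *Haus7* (30.7 ± 1.0), *Haus2* (29.8 ± 0.63), *Haus1* (19.0 ± 0.59), *Haus8* (16.0 ± 1.4), *Haus4* (14.9 ± 2.1), *Haus3* (12.3 ± 1.6), *Haus6* (11.7 ± 0.58) and *Haus5* (11.7 ± 1.1, each an SD over 3 libraries). *Haus7* and *Haus2* overlapped, and so did each neighbouring pair from *Haus8* down. In WT the order was *Haus2* (32.9 ± 1.5), *Haus7* (26.8 ± 1.1), *Haus4* (20.5 ± 1.5), *Haus1* (18.7 ± 0.23), *Haus8* (15.7 ± 1.6), *Haus3* (13.4 ± 0.50), *Haus6* (13.1 ± 0.68) and *Haus5* (11 ± 1.0, again SDs over 3 libraries), where only *Haus8* with *Haus3* and *Haus3* with *Haus6* overlapped. The 8 mRNAs were thus at unequal levels in both genotypes. The files hold shorter forms of some members than release M39 does (1380 against 2650 bases for *Haus7-201*, 2073 against 5169 for *Haus3-201*), and TPM rests on the shorter ones.

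*Haus4* made up 10.1, 9.19 and 11.2% of the summed augmin TPM in *Mov10* Deletion and 13.3, 12.7 and 14.4% in WT, a difference of -3.31 percentage points. *Haus7* made up 20.9, 21.4 and 20.9% in *Mov10* Deletion and 18, 18.3 and 16.7% in WT, a difference of 3.38 percentage points. *Haus6* made up 7.98, 7.97 and 8.06% in *Mov10* Deletion and 8.19, 9.0 and 8.68% in WT, also without overlap. For each of these 3 the exact two-sided permutation test gave p = 0.1, the smallest that 3 against 3 libraries allow, so no share could be called. Over all tested genes, TPM relative to the same augmin sum did not overlap between the genotypes for 34%.

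Part of the *Haus4* share came from a short noncoding form. Coding transcripts were also only a part of the TPM of *Haus5* and *Haus8*. *Haus5* had 8.17 ± 0.13 coding TPM in *Mov10* Deletion and 8.06 ± 0.23 in WT (SD over 3 libraries). *Haus8* had 10.8 ± 0.74 in *Mov10* Deletion and 9.67 ± 0.68 in WT (SD over 3 libraries). The order above and the sums of the 2 parts below thus take in forms that are not coding. When coding transcripts alone were summed, *Haus4* had 12.1, 10.7 and 12.4 TPM in *Mov10* Deletion and 13.2, 13.1 and 16.5 TPM in WT, its position among the 8 was 4 in both genotypes, and the difference in share was -1.68 percentage points. *Haus7* stayed at 30.7 ± 1.0 TPM in *Mov10* Deletion, against 26.8 ± 1.1 TPM in WT (SD over 3 libraries), since all its counts fell on coding transcripts. On this scale *Haus2*, *Haus3*, *Haus4* and *Haus6* were lower in every *Mov10* Deletion library than in any WT library, 4 of 8 against 23% of 14421 tested coding sums, and *Haus7* was higher, 1 of 8 against 17%, with *Haus3* at 12.4, 10.2 and 11.6 TPM in *Mov10* Deletion and 12.5, 13.1 and 13.2 TPM in WT. On the CPM scale used for testing, the coding sums of *Haus3* and *Haus6* overlapped. There *Haus2* and *Haus4* were lower without overlap, and *Haus7* and *Haus8* higher. Over all 14421 coding sums, 3481 were lower and 2604 higher without overlap in CPM. None of the augmin coding sums was called with limma.

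**Figure D3:**
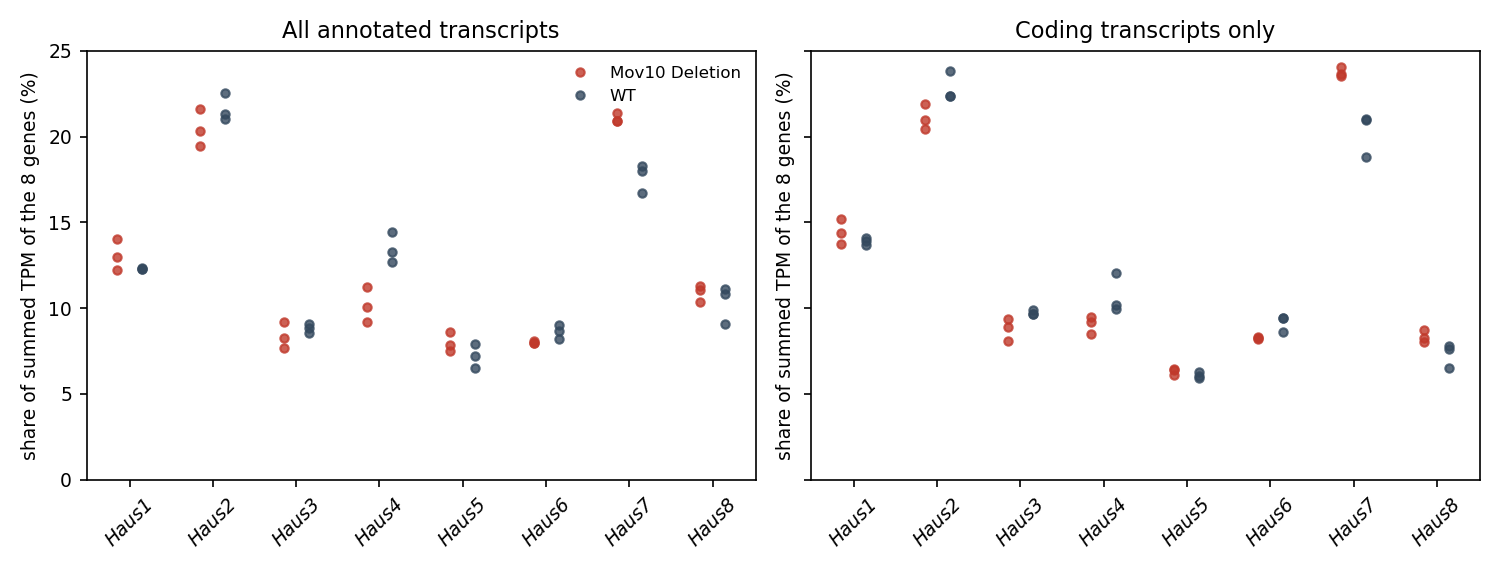
Share of the summed TPM of the 8 augmin genes (y axis, percent) held by each subunit, 1 point per library, *Mov10* Deletion in red on the left of each pair and WT dark on the right. With all transcripts (left panel) *Haus4* averages 10.2% in *Mov10* Deletion and 13.5% in WT, and with coding transcripts alone (right panel) the 2 groups of *Haus4* points come closer.

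The 2 parts of the complex were also summed. *Haus1*, *Haus3*, *Haus4* and *Haus5* together had 59.4, 53.6 and 60.6 TPM in *Mov10* Deletion and 63.3, 61.1 and 66.0 TPM in WT. *Haus2*, *Haus6*, *Haus7* and *Haus8* together had 90.3, 84.9 and 89.7 TPM in *Mov10* Deletion and 87.4, 90.6 and 87.4 TPM in WT. The ratio of the microtubule-contacting to the coiled-coil sum was 1.53 ± 0.053 in *Mov10* Deletion, against 1.4 ± 0.079 in WT (SD over 3 libraries), and the libraries overlapped (exact two-sided permutation p = 0.2, smallest possible 0.1). Summed over all 8 genes the level was 149.7, 138.5 and 150.2 TPM in *Mov10* Deletion and 150.7, 151.7 and 153.5 TPM in WT. The groups did not overlap, but *Mov10* Deletion replicates 1 and 3 lay within 1 WT standard deviation (1.4 TPM) of the lowest WT library.

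The annotation divides transcripts into coding forms, forms marked for nonsense-mediated decay, forms marked as keeping an intron (not always whole) and other noncoding forms. Of the 40 augmin transcripts 21 passed the filter. The other 19 held at most 23.3 estimated counts in any library, and 5 of them were at 0 in all. Of 16 gene-by-class sums tested 0 were called with limma, against 8.74% of 26741 such sums over all genes. An unadjusted p below 0.05 was found for 6 of the 16, against 29.5% of all sums. Retained-intron forms differed between the genotypes across the transcriptome, with a median log2 fold change of 0.27 over 5368 sums and -0.015 over coding sums. Of the retained-intron sums 272 were called higher and 20 lower in *Mov10* Deletion, and these forms took 2.90, 2.84 and 3.29% of all counts in *Mov10* Deletion and 2.65, 2.47 and 2.44% in WT. Among the 4 augmin genes with a tested retained-intron sum, CPM was higher in every *Mov10* Deletion library than in any WT library for *Haus1* and *Haus5*, against 29.4% of all such sums, and lower for *Haus4*, against 2.66%.

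**Figure D4:**
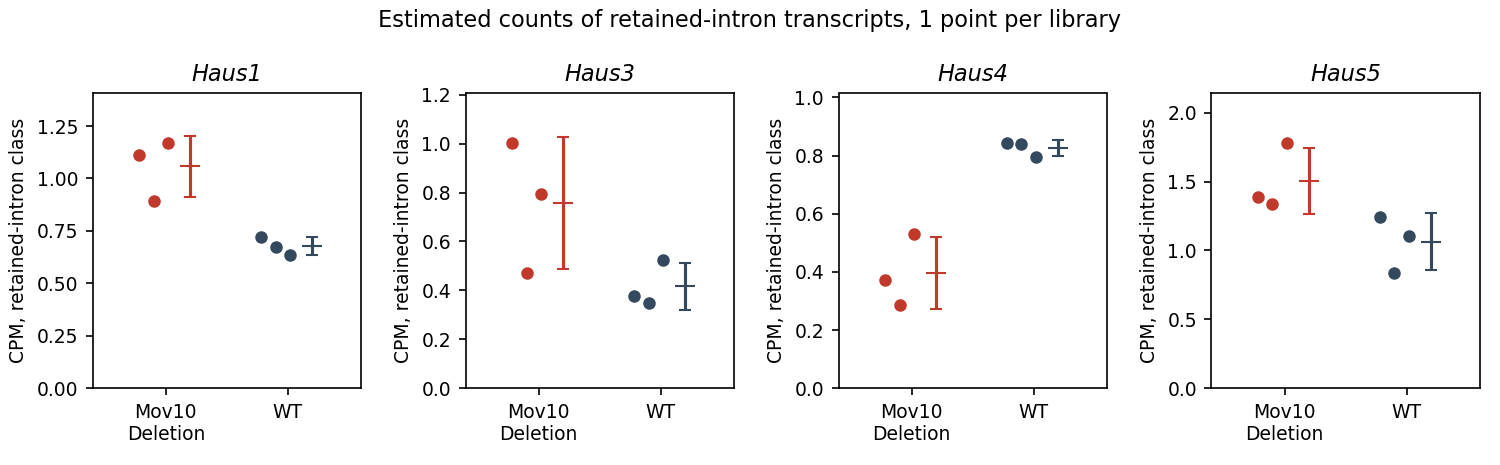
CPM of retained-intron transcripts (y axis, from 0) of *Haus1*, *Haus3*, *Haus4* and *Haus5* in the 3 *Mov10* Deletion libraries (red, left) and the 3 WT libraries (dark, right), with mean and SD. *Haus4* runs the other way from *Haus1* and *Haus5*, with 0.286 to 0.530 CPM in *Mov10* Deletion and 0.796 to 0.845 CPM in WT.

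The *Haus4* sum is almost wholly *Haus4-206*, a form of 552 bases that starts 255 bases upstream of the first base of *Haus4-201* and reads 36 bases past the end of exon 2 into intron 2. The end of exon 2 is shown because that read-through marks the form, with the last 12 exon bases in capitals and the retained intron bases in lower case (GRCm39, chr14:54789558-54789605, minus strand).
Haus4-206: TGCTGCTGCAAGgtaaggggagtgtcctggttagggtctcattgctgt
*Haus4-206* held 30.5, 20.8 and 36.8 estimated counts in *Mov10* Deletion and 69.7, 61.5 and 58.3 in WT, and the groups were well apart. The class sum had a log2 fold change of -1.07 (SE 0.32, limma adjusted p = 0.0901). The coding form *Haus4-201* held 751, 636 and 667 counts in *Mov10* Deletion and 859, 774.5 and 1027 in WT, and the coding sum had a log2 fold change of -0.23 (SE 0.086, adjusted p = 0.140). Both forms were thus lower in each *Mov10* Deletion library, and the coding form carried 94.8 ± 1.9% of the gene's counts in *Mov10* Deletion, against 91.4 ± 1.5% in WT (SD over 3 libraries). Usage of the 2 forms did not pass (diffSplice adjusted p = 0.298).

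*Haus5* was the 1 augmin gene of 8 whose division of counts over transcripts passed the usage test (diffSplice adjusted p = 0.0369), against 3.9% of 10338 genes tested. The transcript that moved was *Haus5-202*, a noncoding form that keeps intron 10 of 18. The intron is shown whole because it sets the form apart from the coding *Haus5-201*, with 12 exon bases in capitals on each side of its 162 bases (GRCm39, chr7:30358540-30358725, minus strand).
Haus5-202: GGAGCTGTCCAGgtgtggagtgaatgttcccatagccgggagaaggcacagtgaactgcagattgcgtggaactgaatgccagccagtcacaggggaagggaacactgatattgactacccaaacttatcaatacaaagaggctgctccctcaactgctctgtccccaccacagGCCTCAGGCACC
The intron begins with gt and ends with ag, as spliced introns do, and its GC content is 51.9%. *Haus5-202* held 34.3, 37.1 and 44.3 estimated counts in *Mov10* Deletion and 14.6, 14.4 and 24.8 in WT, so every *Mov10* Deletion library was above every WT library. Against the rest of the gene its log2 fold change was 1.08 (adjusted p = 0.0311 over 40963 transcripts, of which 2.06% were called). Tested on its own level, *Haus5-202* had a log2 fold change of 1.28 (SE 0.36) and did not pass over all transcripts tested (limma adjusted p = 0.168). *Haus5-201* held 740.5, 714 and 667 counts in *Mov10* Deletion and 781, 675 and 746 in WT. The noncoding form was 4.61 ± 0.76% of the gene's counts in *Mov10* Deletion, against 2.17 ± 0.68% in WT (SD over 3 libraries).

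The *Haus5* usage call held in 1 of 8 alternatives. It was lost without the factors (diffSplice adjusted p = 0.0740) and without each library in turn (adjusted p of 0.0790 to 0.203, the largest without WT replicate 1), while *Haus5-202* stayed higher against the rest of the gene in all of these, by 0.73 to 1.18 on the log2 scale when a library was left out. *Gm21982*, the same-strand noncoding gene that shares bases with *Haus5*, had 116, 108 and 102 estimated counts in *Mov10* Deletion and 94.4, 76.1 and 82.2 in WT (log2 fold change 0.41, SE 0.15, limma adjusted p = 0.0765), and its part in the *Haus5-202* counts was not tested. A second form annotated in this class, *Haus5-205*, keeps 0 introns of *Haus5-201* whole. It held 72.0, 61.0 and 59.8 counts in *Mov10* Deletion and 61.9, 41.6 and 45.4 in WT. The retained-intron sum of *Haus5* had a log2 fold change of 0.49 (SE 0.25, adjusted p = 0.248).

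*Haus3-203* keeps intron 1 of 4, a stretch of 946 bases at chr5:34325788-34326733. Both ends of the intron are shown because reads across them separate the form from *Haus3-201*, with 12 exon bases in capitals and 18 intron bases in lower case (GRCm39, minus strand, chr5:34326716-34326745 and chr5:34325776-34325805).
Haus3 intron 5′ end: GGCTTTCCTGAGgtaagggtcttgtaagtt
Haus3 intron 3′ end: tgttctttcccccactagGAAAACACATTA
*Haus3-203* held 82.0, 36.0 and 56.8 estimated counts in *Mov10* Deletion and 32.4, 26.3 and 40.4 in WT. *Mov10* Deletion replicate 2 lay within the WT range and the other 2 libraries lay above it. The log2 fold change was 0.84 (SE 0.30, limma adjusted p = 0.129) while the coding sum had one of -0.14 (SE 0.075, adjusted p = 0.266). The retained-intron form was 8.30 ± 2.0% of the gene's counts in *Mov10* Deletion, against 4.36 ± 0.76% in WT (SD over 3 libraries).

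*Haus1-203*, which keeps introns 3 to 8 of 8 as a form of 6882 bases, held 90.7, 68.0 and 83.6 estimated counts in *Mov10* Deletion and 62.1, 50.8 and 48.9 in WT, without overlap. Its log2 fold change was 0.58 (SE 0.23, limma adjusted p = 0.155) and that of the coding sum was 0.037 (SE 0.086, adjusted p = 0.805). *Haus1-201*, the main coding form, held 553, 538 and 478 counts in *Mov10* Deletion and 567, 519 and 564 in WT, and the second coding form, *Haus1-202*, held 10.9 to 49.4 in *Mov10* Deletion and 13.3 to 24.9 in WT. The retained-intron form was 12.8 ± 2.0% of the counts of *Haus1* in *Mov10* Deletion, against 8.66 ± 0.85% in WT (SD over 3 libraries).

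In *Haus6* the noncoding form *Haus6-204* varied widely within WT. It held 58.7, 39 and 79.6 estimated counts in *Mov10* Deletion and 51.7, 3.72 and 0 in WT, and the noncoding sum did not pass (log2 fold change 1.14, SE 0.42, limma adjusted p = 0.135). *Haus6-201*, with 2054, 1843 and 1710 counts in *Mov10* Deletion and 2121, 2095 and 2290 in WT, carried 96.9 ± 1.2% of the gene in *Mov10* Deletion, against 98.8 ± 1.2% in WT (SD over 3 libraries). *Haus2* was carried by *Haus2-203* with 2273, 2373 and 1866 counts in *Mov10* Deletion and 2525, 2242 and 2780 in WT. Its second coding form, *Haus2-202*, ranged from 0 to 249 counts within *Mov10* Deletion and from 27.6 to 173 within WT, and usage did not pass (diffSplice adjusted p = 0.901). *Haus2-201*, marked for decay, held 132, 88 and 62 counts in *Mov10* Deletion and 108, 103 and 79.2 in WT, with overlap. *Haus8* had the most forms in use, with 4 passing the filter. Its short noncoding form *Haus8-206* held 35.3, 28.0 and 42.3 counts in *Mov10* Deletion and 59.5, 64.9 and 49.6 in WT, lower in each *Mov10* Deletion library, and the usage test gave an adjusted p of 0.266. The form of *Haus8* marked for decay, *Haus8-203*, held 129, 106 and 98.0 counts in *Mov10* Deletion and 114.5, 109.6 and 109 in WT. Its coding forms *Haus8-201* and *Haus8-202*, whose exon 5 starts 3 bases apart, held 670 to 809 and 72.7 to 93.1 counts in *Mov10* Deletion, against 593 to 803 and 45.5 to 92.2 in WT.

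The partners of augmin were read from 2 lists. The γ-tubulin ring complex, the template on which the new microtubule starts, had 10 genes tested, of which 1 rose (12.6% of all tested genes did), 1 fell (12.1% of all) and 8 did not pass, a rate near that of all genes, with a median log2 fold change of -0.029. *Tubg2*, the γ-tubulin gene of differentiated brain cells, had 22.0, 21.9 and 23.4 CPM in *Mov10* Deletion and 18.4, 20.6 and 20.0 CPM in WT (log2 fold change 0.21, SE 0.059, limma adjusted p = 0.0367). *Mzt2*, a small protein of the ring complex, had 15.2, 15.6 and 14.9 CPM in *Mov10* Deletion and 19.6, 18.1 and 19.6 CPM in WT (log2 fold change -0.32, SE 0.061, adjusted p = 0.00974). *Nedd1*, named outside the rule as the adaptor between the ring complex and augmin, had a log2 fold change of -0.095 (SE 0.063, adjusted p = 0.300).

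Of 13 further genes of spindle nucleation, 6 fell, against 12.1% of all tested genes, and the other 7 did not pass, with a median log2 fold change of -0.12. The 6 were *Tacc3* (-0.51, SE 0.049), *Tpx2* (-0.49, SE 0.040), *Plk1* (-0.44, SE 0.069), *Aurka* (-0.35, SE 0.091), *Cdk1* (-0.28, SE 0.063) and *Ckap5* (-0.20, SE 0.034), with limma adjusted p-values of 0.00109 to 0.0280. TPX2 works beside augmin in branching, PLK1 and AURKA are mitotic kinases that act on spindle proteins, CDK1 drives entry into mitosis, and CKAP5 and TACC3 act on microtubule growth. All but *Ckap5* are genes that dividing cells also raise for mitosis, and 9 of the 10 dividing-cell markers were called lower in the same comparison. *Haus4*, which fell by 0.29 on the log2 scale, was the 1 augmin subunit called in that direction, and the part of the lower dividing-cell level in it was not tested. *Numa1*, named outside the rule because the study set it beside augmin, had 192, 209 and 226 CPM in *Mov10* Deletion and 224, 230 and 240 CPM in WT, with overlap (log2 fold change -0.12, SE 0.046, adjusted p = 0.0940). The study's own analysis of these libraries called *Numa1* significantly decreased, and its RT-qPCR on P0 hippocampi also found less. The direction was the same here, but the threshold was not passed. The reason for the difference was not tested.

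**Figure D5:**
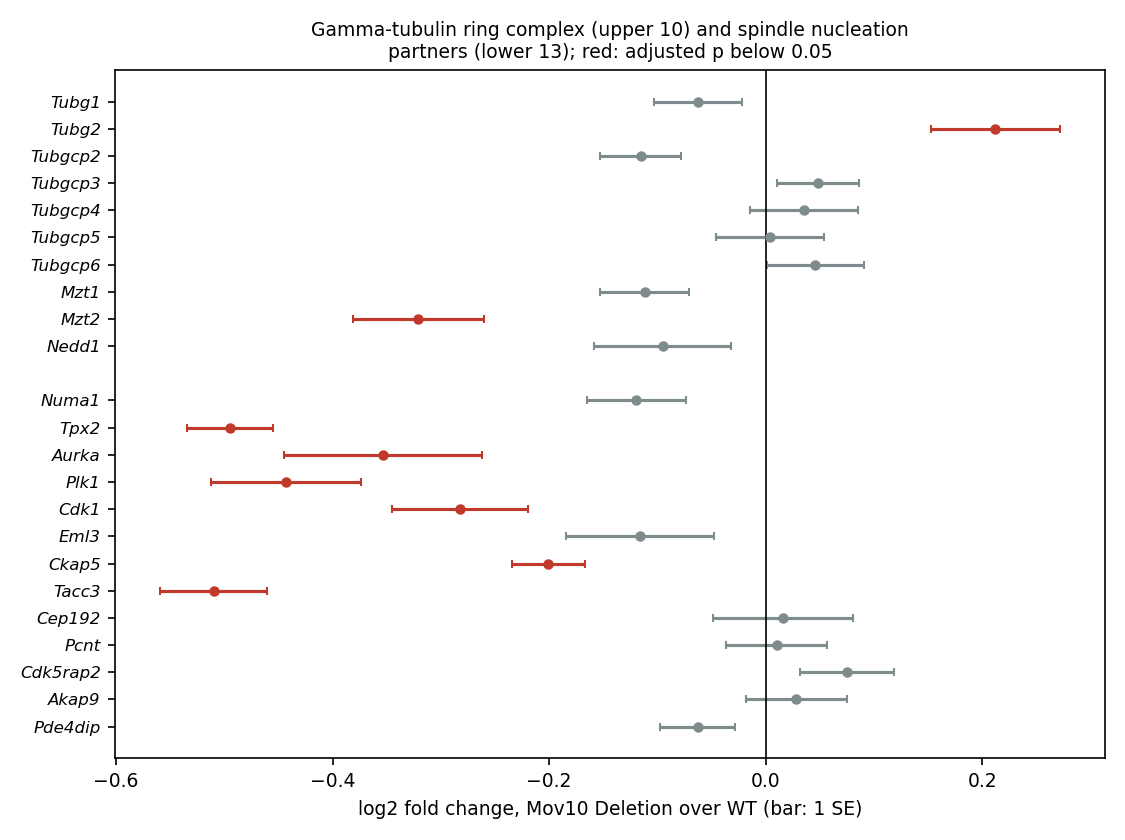
Log2 fold change, *Mov10* Deletion over WT (x axis), with 1 SE of the limma fit, for 10 genes of the γ-tubulin ring complex (upper) and 13 genes of spindle nucleation (lower). Red points have an adjusted p below 0.05, and they include *Tubg2* at 0.21, *Mzt2* at -0.32 and 6 partners between -0.51 and -0.20.

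The genes whose profile over the 6 libraries lay closest to that of *Haus4*, by the mean absolute difference of centred log2 CPM, were *2700099C18Rik* (0.030), *Cntf* (0.039) and *Mpped1* (0.043), all of them highest in WT replicate 3. *Mpped1* had 124, 116 and 129 CPM in *Mov10* Deletion and 130.2, 140.5 and 185 CPM in WT. Closest to *Haus7* were *Ndufb4c* (0.011), *Slc30a10* (0.017) and *Rsu1* (0.018), and *Rsu1* had 27.2, 27.0 and 26.0 CPM in *Mov10* Deletion and 22.9, 23.3 and 22.8 CPM in WT. RefSeq promoter sequences, 250 bases before to 50 after the start, were at hand for 7 of the 8 subunits. The letters CCAAT, read on both strands, stood in those of *Haus3*, *Haus4*, *Haus6* and *Haus7*, 4 of 7, against 41.1% of 27025 genes. The letters TTTGAA, read on both strands, stood in 0 of 7, against 20.2% of all genes.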

How the data were processed

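Hippocampal RNA of P0 pups was sequenced as stranded mRNA libraries in 3 *Mov10* Deletion and 3 WT pools. The deposited values are estimated counts and TPM per transcript, which the authors obtained with Salmon 1.4.0 (selective alignment, GRCm39 as decoy). Which annotation release they indexed is not stated in the sources at hand. Of 139225 transcripts in the files, 137570 matched GENCODE M39, and 0.589 to 0.600% of counts did not. Estimated counts were summed per gene, or per gene and transcript class, scaled by TMM (edgeR 4.0.16), filtered (0.25 CPM in at least 3 libraries) and tested as log2 CPM (prior count 2, not rounded) by limma-trend 3.58.1 with 2 RUVs factors (R 4.3.3). The RUVSeq function was not named by the study, and RUVs was taken. Usage was tested with limma diffSplice. Subunit shares used the deposited TPM and exact permutation tests. P-values of the limma and diffSplice fits were adjusted by Benjamini-Hochberg over all features tested. The alternatives included DESeq2 1.42.0, edgeR's quasi-likelihood test on rounded counts, other filters and scalings, a sex score (*Xist* against Y-linked genes), a replicate block and leaving out each library.

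Named were the 8 subunits and their transcripts, *Mov10*, called members of 2 partner lists (otherwise the 2 with the smallest p) and, for each called subunit, the 3 tested genes of at least 1 CPM closest in profile. Members and lists were chosen with earlier results of these data known. Scripts were tested on simulated data with larger changes than those called for the subunits, so that test cannot speak to changes this small. Near-identical copies were sought with blastn 2.17.0 (at least 95% identity over 200 bases). Sequences come from GRCm39, and promoters from RefSeq (GRCm38.p6), without use of their coordinates. P-values of the limma and diffSplice fits measure the spread among pools that is left after the 2 factors, not the whole spread. At gene level this left 2 residual degrees of freedom, moderated by a prior of 5.89 from all tested genes. Counting precision is limited by the depth given above.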

Additional observations from a re-analysis of the deposited data

How the results depend on the processing

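Each result was recomputed under alternatives that changed 1 choice, or the test or block together with the factors (DESeq2 and 1 of 2 edgeR fits used genotype alone). At gene level *Haus4* stayed lower in 19 of 19 alternatives and past the threshold in 15, and *Haus7* stayed higher in 19 of 19 and past it in 13. Without a library, *Haus3* ranged from -0.15 to 0.015, and at class level coding *Haus1* from -0.020 to 0.087, coding *Haus5* from -0.0069 to 0.040, *Haus2* decay forms from -0.33 to 0.063 and *Haus8* decay forms from -0.0043 to 0.088 (log2 fold changes, none called). *Haus8* turned to -0.015 with length-scaled TPM counts and to -0.019 on log2(TPM + 0.1), not called in either. *Haus6* was called only without WT replicate 1 (log2 fold change -0.20, limma adjusted p = 0.0385), *Haus4* retained-intron forms only without *Mov10* Deletion replicate 3 (-1.32, adjusted p = 0.0481) and the other noncoding sum of *Haus6* only without *Mov10* Deletion replicate 2 (1.41, adjusted p = 0.0468) or WT replicate 1 (2.41, adjusted p = 0.0335). *Haus2* usage passed without *Mov10* Deletion replicate 1, *Mov10* Deletion replicate 3 or WT replicate 3 (diffSplice adjusted p of 0.00896 to 0.0277). The cause of these changes was not tested.

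Over all genes 4137 were called, 1364 with the sex score, 925 with no filter (more genes tested), 2094 on log2(TPM + 0.1) and 2803 to 5797 without a library. The split was 2104 higher and 2033 lower, and 2320 higher and 1491 lower with upper-quartile scaling. Without a library, called class sums ranged from 684 (without WT replicate 2) to 4689 (without *Mov10* Deletion replicate 2) against 2336, with 3712 without *Mov10* Deletion replicate 1, and genes called for usage from 212 (without WT replicate 2) to 549 against 403. A filter of 1 CPM left too few transcripts for usage of *Haus1* and *Haus3* to *Haus6*, and no retained-intron sum of *Haus1*, *Haus3* or *Haus4*, nor the other noncoding sums of *Haus6* and *Haus8*. The difference in *Haus4* share was -1.68 percentage points with coding transcripts alone.

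With the factors replaced by a replicate block the count of called genes was 3425, *Haus4* had a log2 fold change of -0.36 (adjusted p = 0.0210), *Haus7* one of 0.21 (adjusted p = 0.0465) and *Haus5* usage an adjusted p of 0.0328, so no call on the subunits changed. Libraries with the same number did not deviate together (correlations of 0.011, -0.071 and 0.043 over genes), so the numbers were not read as pairs. With 3 pools a genotype and counts of 14.4 to 90.7 behind the retained-intron forms named, differences in single transcripts rest on few reads.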
